A study of Mus musculus with 12 samples.

Results

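Spp1, Gpnmb, Lgals3, Cst7, Clec7a, Itgax, Igf1, Cd9, Cd63 and Cd52 are 10 genes whose mRNA is known to be high in activated, disease-associated and ageing microglia. They were taken by symbol, with earlier results of these data known. All 10 were among the 29957 named genes of the microglia table and passed its filter on low counts. The hippocampus table of 14663 named genes held 8 of them, without Cst7 and Itgax, and 7 of those passed its filter on low values, with Clec7a falling below it. RNA was sequenced from 12 samples of C57BL/6 mice, 3 in each of 4 groups: microglia of the hippocampus, which are the macrophages that live in brain tissue, from mice of 3 months (young) and 24 months (old), and whole hippocampus from mice of 6 months (mature) and 18 months (aged). No genotype other than the strain and no agent was given for any group, so age was the variable within each tissue. The labels leave unsaid whether each sample is a mouse of its own or a pool, and how the microglia were isolated, and the p-values therefore measure the spread between these samples, which may be technical.

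Activated microglia switch on genes for secreted ligands, surface receptors, lysosomal and phagocytic proteins and tetraspanins. Osteopontin, the product of Spp1, is a secreted ligand of integrins, and Igf1 encodes insulin-like growth factor 1. Clec7a encodes dectin-1, a receptor for fungal glucans that signals through the kinase Syk, and Itgax encodes CD11c, the alpha chain of a beta 2 integrin shared by dendritic cells and activated microglia. Gpnmb encodes a transmembrane glycoprotein of phagocytes, Lgals3 the galactoside-binding lectin galectin-3, which binds damaged endosomes and lysosomes, and Cst7 encodes cystatin F, an inhibitor of lysosomal cysteine proteases. Cd9 and Cd63 encode tetraspanins, membrane organisers of the cell surface and of late endosomes, and Cd52 encodes a short glycopeptide anchored to the surface of leukocytes.

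RefSeq promoter windows on GRCm38.p6, each running from 250 bases before to 50 bases after a start site, were matched for 9 of the 10 genes in 11 entries. The entry for Cd52 was missing. The windows of 5 genes that hold a match on the plus strand to a motif that was searched are shown, so that the matches can be read in place. Capitals mark the matches, which are TGANTCA, the core bound by AP-1 factors such as Fos and Jun, and GAGGAAG, a core of ETS factors of the PU.1 type.
Gpnmb, GRCm38.p6, chr6:49036268-49036567, plus strand: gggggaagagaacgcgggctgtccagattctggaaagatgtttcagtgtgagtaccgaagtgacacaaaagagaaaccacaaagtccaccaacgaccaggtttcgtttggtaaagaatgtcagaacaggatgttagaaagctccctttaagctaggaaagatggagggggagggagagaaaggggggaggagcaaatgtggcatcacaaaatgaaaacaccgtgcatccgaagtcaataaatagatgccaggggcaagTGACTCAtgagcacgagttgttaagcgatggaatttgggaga
Cst7, GRCm38.p6, chr2:150570165-150570464, plus strand: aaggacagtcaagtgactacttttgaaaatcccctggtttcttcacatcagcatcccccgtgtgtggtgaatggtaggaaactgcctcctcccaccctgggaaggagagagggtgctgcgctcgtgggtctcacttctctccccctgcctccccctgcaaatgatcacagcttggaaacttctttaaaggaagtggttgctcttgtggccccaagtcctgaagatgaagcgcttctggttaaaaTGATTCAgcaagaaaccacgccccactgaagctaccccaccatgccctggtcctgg
Itgax, GRCm38.p6, chr7:128129300-128129599, plus strand: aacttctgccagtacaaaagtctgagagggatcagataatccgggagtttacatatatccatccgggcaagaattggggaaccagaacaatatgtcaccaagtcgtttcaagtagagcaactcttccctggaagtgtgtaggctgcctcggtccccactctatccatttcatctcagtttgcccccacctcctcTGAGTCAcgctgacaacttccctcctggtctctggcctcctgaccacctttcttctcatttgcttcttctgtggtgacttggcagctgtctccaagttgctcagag
Igf1, GRCm38.p6, chr10:87860861-87861160, plus strand: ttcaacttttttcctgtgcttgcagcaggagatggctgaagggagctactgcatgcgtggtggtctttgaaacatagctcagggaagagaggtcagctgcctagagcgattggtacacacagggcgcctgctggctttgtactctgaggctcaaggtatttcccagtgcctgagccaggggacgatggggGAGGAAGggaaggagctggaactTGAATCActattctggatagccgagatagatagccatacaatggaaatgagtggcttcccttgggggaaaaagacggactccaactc
Spp1, GRCm38.p6, chr5:104434861-104435160, plus strand: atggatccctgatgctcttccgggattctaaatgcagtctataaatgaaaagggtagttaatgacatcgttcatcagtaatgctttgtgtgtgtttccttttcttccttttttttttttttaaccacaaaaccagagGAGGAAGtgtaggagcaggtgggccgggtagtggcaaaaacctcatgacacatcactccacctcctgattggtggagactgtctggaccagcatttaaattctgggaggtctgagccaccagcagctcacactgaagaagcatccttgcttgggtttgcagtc

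TGANTCA lay in the windows of Gpnmb, Cst7, Itgax and Igf1, at 8, -6, -56 and -37 bases from the start site, where a negative value lies upstream. That is 4 of 11 entries, and 7.81% of 32851 promoter windows of the same length held the motif. The letters match in the capitals of those 4 sequences above, and both strands were searched. They were TGACTCA in Gpnmb and TGAGTCA in Itgax, the AP-1 core forms. In Cst7 and Igf1 they were TGATTCA and TGAATCA, which are not those forms. The share over all windows likewise counts any base at N. GAGGAAG lay at -113 in the first of the Spp1 entries, at -60 in Igf1 and, on the minus strand, at -60 in Cd63, against 13.6% of all windows. The palindrome CACGTG, the core of the site that lysosomal gene regulators of the MiT family bind, was in 0 of the 11 entries and in 7.15% of all windows. The motifs do not overlap each other, and each match is a description of letters and not evidence of a bound site.

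Levels in microglia are CPM, the counts-per-library-size unit, made here from the authors' estimated counts with TMM-scaled library sizes and not corrected for gene length. Depth ran from 8068023 to 14217142 estimated counts per library, and the genes with a count numbered 11789 to 13839. Defining microglia markers, such as Csf1r, were present in all of them, with a summed level of 94453 to 101310 CPM over 16 genes at 3 months and 69144 to 92562 CPM at 24 months. The sums did not overlap, and 13 of the 16 genes had a lower mean at 24 months. Of these, 4 had an unadjusted p under 0.05 (edgeR, against 2.02% of all genes). In 4 all old libraries lay below all young ones (6.18% of all genes). Libraries stood apart within both ages. The summed level of 15 immediate early genes reached 34461 CPM in 24 month replicate 1 and 36656 CPM in replicate 2. It was 1764 CPM in replicate 3 and 1332 to 2152 CPM at 3 months. Each of its 13 tested genes had an unadjusted p under 0.05 and was higher in the old group (edgeR; median log2 change 5.61), and 7 of them, Klf2, Ier2 and Fos included, were above the young libraries in replicate 3 too. In 24 month replicate 1, the summed levels of 10 neutrophil markers (2994 CPM, against 559.3 to 688.1 CPM elsewhere), 8 mural cell markers (294.5 CPM, against 0.299 to 38.8 CPM) and 8 monocyte markers (191.6 CPM, against 3.20 to 23.3 CPM) were the highest of the 6. The highest in that library were S100a8 and Csf3r of the neutrophil list, at 1289 and 576.2 CPM, Acta2 and Tagln of the mural list, at 215.0 and 64.4 CPM, and Chil3 of the monocyte list, at 190.7 CPM. Csf3r did not set that library apart. It was at 553.5 to 627.8 CPM at 3 months, and at 655.8 and 569.0 CPM in 24 month replicates 2 and 3. In those libraries it made up most of the neutrophil sum. Of the neutrophil, mural and monocyte lists 1, 3 and 3 genes were at 0 in every library. The summed levels of 8 astrocyte markers (11.6 to 20.5 CPM at 3 months, 48.1 to 78.9 CPM at 24 months), 8 endothelial markers (23.5 to 45.5, then 51.9 to 139.6 CPM), 8 neuron markers (0.0746 to 1.25, then 1.27 to 17.7 CPM) and 8 dendritic cell markers (5.11 to 7.76, then 11.9 to 27.1 CPM) were higher in each old library, with 0, 0, 1 and 4 genes at 0 in every library. The 8 border macrophage markers, 1 of them at 0 in every library, reached a sum of 41.2 CPM in 24 month replicate 2, the other libraries lying between 0.949 and 7.22 CPM. The part of any of these lists in the levels of the 10 genes was not tested. Across genes, which are not independent replicates, 3 month replicates 2 and 3 correlated with 3 month replicate 1 at r = 0.740 and 0.749 and with 24 month replicate 3 at r = 0.876 and 0.878.

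In microglia, all 10 genes had a higher mean at 24 than at 3 months, where 50.5% of the 10663 genes tested did, and the median log2 change of the 10 was 1.91 against 0.01 for all genes. The 10 were chosen with earlier results of these data known, so the shares over all genes beside them are a description. Gpnmb, with 0 counts in each young library, passed the filter through the old libraries alone. These are bulk libraries, so more cells of a type or state and more RNA per cell cannot be told apart. The greatest differences were in Spp1, Gpnmb, Lgals3 and Igf1, the smallest in Cd9 and Cd63. In 7 genes all old libraries exceeded all young ones and in 0 they lay below, against 7.26% and 6.18% of all genes tested. With edgeR's quasi-likelihood test, 5 genes (Spp1, Gpnmb, Clec7a, Cst7 and Lgals3) had an unadjusted p under 0.05 and a higher mean, as did 3.52% of all genes. No member had such a p with a lower mean, against 2.02% of all genes. None of the 10 passed an adjusted p of 0.05 (Benjamini-Hochberg over all genes), and 0% of the 10663 genes did. DESeq2, run on the same counts as an alternative, called Spp1 and Gpnmb, with 1.65% of its 11744 genes called higher.

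**Figure D1:**
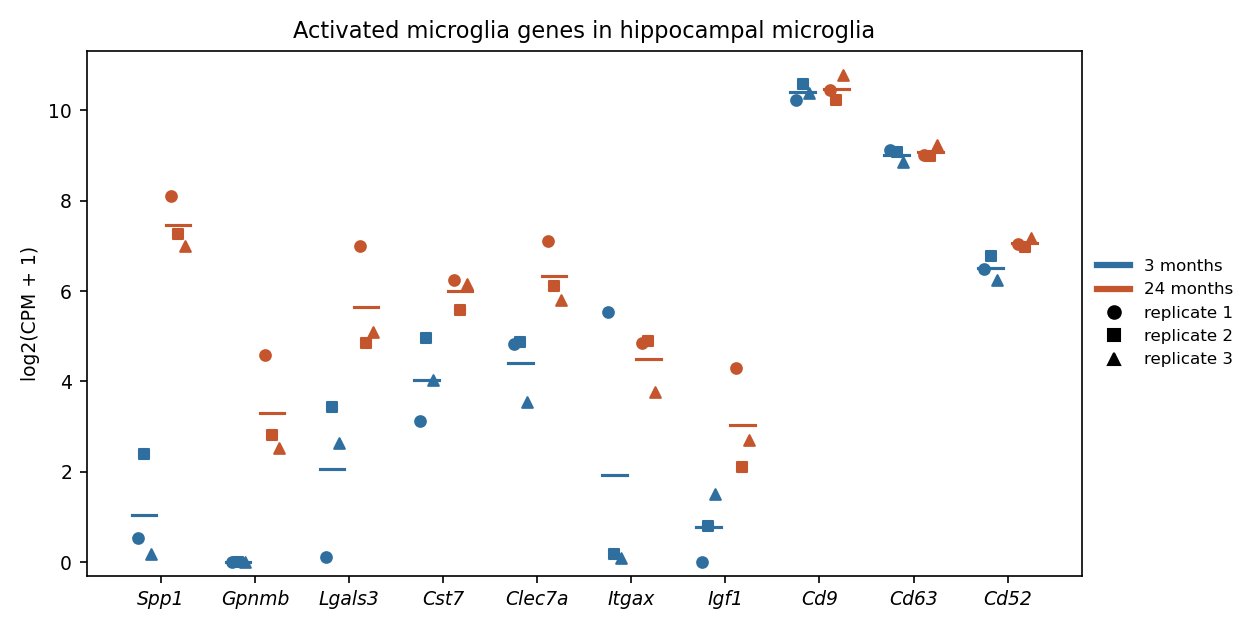
Levels of the 10 genes in each microglia library, as log2(CPM + 1), with 3 libraries at 3 months and 3 at 24 months per gene, a symbol for each replicate and lines at the group means of the plotted values. All old points lie above all young points in 7 genes, while Itgax, Cd9 and Cd63 overlap, and Gpnmb is at 0 in each young library.

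Among the secreted ligands, Spp1 (chromosome 5, 104435118 to 104441050 in GENCODE on GRCm38) had the widest gap between the ages. It was at 0.448, 4.24 and 0.136 CPM in 3 month replicates 1, 2 and 3, and at 274.4, 152.6 and 127.7 CPM in 24 month replicates 1, 2 and 3. The groups did not overlap, and the lowest old library was 30.1 times the highest young one. The means were 1.61 ± 2.28 and 184.9 ± 78.5 CPM (SD, n = 3 each), a log2 change of 6.95 ± 1.19 (SE; edgeR, unadjusted p = 0.000483, adjusted p = 0.539). The young libraries differed among themselves by 31.1-fold, the old ones by 2.15-fold. Without 3 month replicate 2, the highest young library, the change was 9.26 (adjusted p = 0.161). Spp1 was called by DESeq2 (adjusted p = 6.94e-07), by limma on log2(TPM + 1) (adjusted p = 0.0407) and by edgeR's bias-adjusted quasi-likelihood fit (adjusted p = 0.00368), so its call depended on the test. In the authors' deposited table its log2 change was 6.84 ± 1.10 with an adjusted p of 6.18e-07, where 1.54% of 12084 genes were called higher.

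The other secreted ligand, Igf1 (chromosome 10, 87858265 to 87937042), was much scarcer. It was at 0, 0.748 and 1.84 CPM in the young libraries, from 0, 6 and 27 counts, and at 18.5, 3.33 and 5.51 CPM in the old ones, from 175, 33 and 58 counts. The old libraries all lay above the young ones, the lowest by 1.81-fold, with 24 month replicate 1 the highest. The log2 change was 3.38 ± 1.78 (SE; edgeR, adjusted p = 0.967), and 2.33 without 24 month replicate 1. The average transcript length assigned to Igf1 ran from 1226 bases in 24 month replicate 2 to 6931 bases in 3 month replicate 3, so its levels depend on which transcripts were counted. On the scale of TPM, which divides counts by transcript length and brings libraries to a common total, the old libraries were at 4.09, 3.76 and 1.92, and 24 month replicate 3 was then the lowest of them in place of replicate 2.

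Of the microglia libraries, Gpnmb (chromosome 6, 49036546 to 49070929) had counts in the old ones only. It had 0 counts in each of the 3 young libraries and 218, 60 and 50 counts, or 23.1, 6.05 and 4.75 CPM, in 24 month replicates 1, 2 and 3. A count of 0 over the young group allows up to 3 counts, or 0.0831 CPM. Against that floor the old mean of 11.3 ± 10.2 CPM (SD, n = 3) was at least 136-fold higher (log2 of at least 7.09), and at least 65-fold higher without 24 month replicate 1. Both bounds limit the young side only, for counting error, and take the old mean as it stands. The lowest old library, at 4.75 CPM, lies nearer the floor than either mean. The edgeR test gave an unadjusted p of 0.0033 and an adjusted p of 0.539, and DESeq2 an adjusted p of 2.71e-05. In the authors' deposited table the adjusted p was 2.52e-05. The level in 24 month replicate 1 was 4.86 times that in replicate 3, and the neutrophil, mural and monocyte marker sums were highest in that same library; their part in the level of Gpnmb was not tested.

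Lgals3 (chromosome 14, 47367751 to 47386160) was likewise highest in 24 month replicate 1. It was at 0.0746, 9.72 and 5.24 CPM in the young and at 126.5, 27.7 and 33.3 CPM in the old libraries. The groups did not overlap, with the lowest old library at 2.85 times the highest young one, and 24 month replicate 1 was the only library above 33.3 CPM. The log2 change was 3.64 ± 1.41 (SE; edgeR, unadjusted p = 0.0336, adjusted p = 0.871), 2.60 without 24 month replicate 1 and 2.03 without replicate 1 of both ages. As for Gpnmb, the part of the neutrophil and mural RNA in that library was not tested for Lgals3.

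Cst7 (chromosome 2, 150570415 to 150578944) differed less in ratio but was more even among the old libraries. Its levels were 7.76, 30.2 and 15.3 CPM at 3 months and 74.7, 46.7 and 70.3 CPM at 24 months, or 17.7 ± 11.4 and 63.9 ± 15.1 CPM (SD, n = 3 each). The groups did not overlap, and 24 month replicate 3 lay close to replicate 1. The log2 change was 1.85 ± 0.63 (SE; edgeR, unadjusted p = 0.0194, adjusted p = 0.791). It was 2.46 without 3 month replicate 2, and the unadjusted edgeR p was 0.0564 without 3 month replicate 3, 0.0568 without 24 month replicate 1 and 0.0611 without 24 month replicate 3.

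Of the receptors, Clec7a (chromosome 6, 129461591 to 129472779, minus strand) was at 27.5, 28.2 and 10.7 CPM in the young and at 136.7, 68.2 and 54.8 CPM in the old libraries. All old libraries lay above all young ones, the lowest by 1.94-fold. GENCODE on GRCm38 classes this gene as a polymorphic pseudogene, a gene that codes for protein in some mouse strains. The log2 change was 1.97 ± 0.57 (SE; edgeR, unadjusted p = 0.00945, adjusted p = 0.629). Itgax (chromosome 7, 128129547 to 128150657) did not separate the ages. It was at 45.8, 0.125 and 0.0681 CPM at 3 months, then 27.8, 28.6 and 12.5 CPM at 24 months, so the highest of the 6 was 3 month replicate 1, with 613 counts against 1 count in each of the other young libraries. Its log2 change was 0.59 ± 1.92 (SE; edgeR, adjusted p = 0.998), and 7.78 (adjusted p = 0.868) without 3 month replicate 1. Dendritic cells also express Itgax. Their 8 markers summed to 6.05 CPM in 3 month replicate 1, to 5.11 and 7.76 CPM in 3 month replicates 2 and 3 and to 11.9, 13.1 and 27.1 CPM in the old ones, and 4 of the 8 were at 0 in every library.

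The tetraspanins Cd9 and Cd63 were high and nearly even. Cd9 (chromosome 6, 125460266 to 125494791, minus strand) was at 1196, 1533 and 1330 CPM at 3 months and at 1390, 1197 and 1757 CPM at 24 months, with overlapping groups and a log2 change of 0.10 ± 0.20 (SE; edgeR, adjusted p = 0.998). Cd63 (chromosome 10, 128900989 to 128912822) was at 559, 536 and 462 CPM, then 514, 507 and 599 CPM, and its log2 change was 0.06 ± 0.17 (SE; edgeR, adjusted p = 0.998). Both differences were smaller than their standard errors and changed sign when single libraries were left out. Cd52 was at 89.0, 109.3 and 74.3 CPM in the young and 130.1, 125.0 and 144.5 CPM in the old libraries. Its groups did not overlap, but the lowest old library was only 1.14 times the highest young one, and the log2 change was 0.55 ± 0.25 (SE; edgeR, unadjusted p = 0.0614, adjusted p = 0.917). In the GENCODE annotation of GRCm38, Cd52 (chromosome 4, 134082448 to 134095082, minus strand) shares 172 exon bases with Crybg2 on the opposite strand. The library protocol in the labels names no step that keeps strand, so reads of the 2 genes there cannot be told apart. The same holds for 218 exon bases that Cd9 shares with Gm26728 on the opposite strand and for 309 that Spp1 shares with Gm42793 on its own strand.

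**Figure D2:**
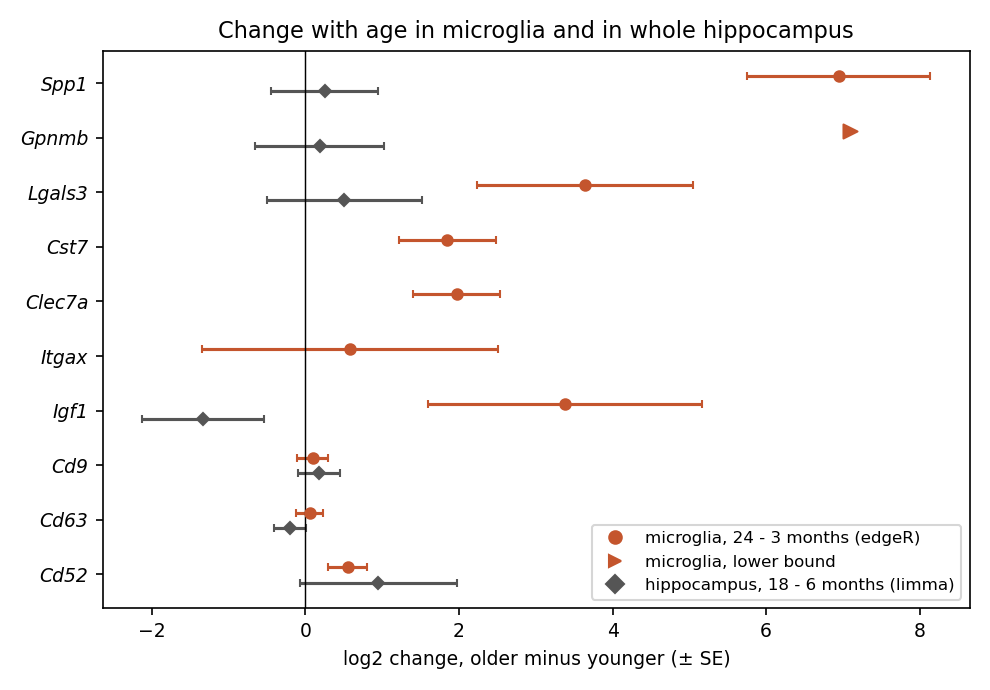
Log2 changes of the member genes in microglia (24 against 3 months, edgeR) and in whole hippocampus (18 against 6 months, limma on log2(normalized count + 1)), with bars of 1 SE; Gpnmb in microglia is drawn as an arrowhead at its lower bound of 7.09. Spp1 in microglia is at 6.95 and Cd63 at 0.06, and every hippocampus value lies between -1.33 and 0.95.

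Per transcript length the order of the 10 genes shifted with age. Young microglia were led by Cd9 at 1725 ± 253 TPM, Cd63 at 765.4 ± 38.3 TPM and Cd52 at 321.3 ± 65.2 TPM (SD, n = 3 each), and these 3 levels did not overlap. Below them came Cst7 (28.7), Clec7a (23.1), Lgals3 (6.91), Itgax (5.27), Spp1 (1.74), Igf1 (0.287) and Gpnmb (0 TPM), and from Cst7 downward each neighbour in this order overlapped the next. The young Itgax mean rested on 3 month replicate 1, at 15.7 TPM. In 3 month replicates 2 and 3 Itgax was at 0.0432 and 0.0255 TPM, below Spp1 at 4.53 and 0.155 TPM. In old microglia Cd9, Cd63 and Cd52 led again, at 1832, 799 and 483 TPM, but Spp1 came next at 195.9 ± 74.2 TPM (SD, n = 3), above Cst7 (102.5) and Clec7a (82.3) without overlap. Lgals3 (81.8 TPM) ran from 38.5 to 162.5 TPM and overlapped the lowest Spp1 library, at 141.1 TPM. Cst7 overlapped Clec7a, and Clec7a overlapped Lgals3. Itgax (7.96), Gpnmb (4.21) and Igf1 (3.26 TPM) followed, each overlapping its neighbour. Cd9, Cd63 and Cd52 together made up 97.0% to 98.4% of the summed TPM of the 10 genes in the young libraries, and 80.2%, 88.2% and 91.1% in 24 month replicates 1, 2 and 3. The summed TPM of the other 7 was 54.6, 98.0 and 45.5 in the young and 702, 367.7 and 363.7 in the old libraries.

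**Figure D3:**
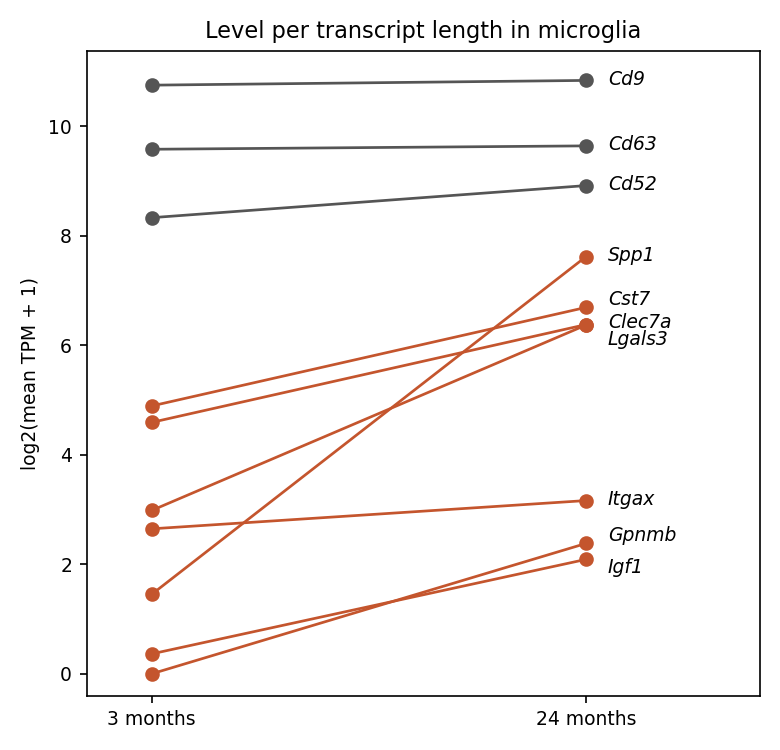
Levels per transcript length of the 10 genes in young and old microglia, as log2(mean TPM + 1) with 1 line per gene; Cd9, Cd63 and Cd52 are in grey. The mean of Spp1 goes from 1.74 to 195.9 TPM and passes the means of Cst7, Clec7a, Lgals3 and Itgax, while Cd9, Cd63 and Cd52 stay highest. The young Itgax mean rests on 3 month replicate 1.

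The old libraries were not alike. For 6 genes, Spp1, Gpnmb, Lgals3, Cst7, Clec7a and Igf1, 24 month replicate 1 had the highest CPM of the old libraries, while Cd9, Cd63 and Cd52 were highest in 24 month replicate 3 and Itgax in replicate 2. The ratio of the highest to the lowest old library was 5.57 for Igf1, 4.86 for Gpnmb and 4.56 for Lgals3, and 1.16 to 1.6 for Cd52, Cd63, Cd9 and Cst7. With 24 month replicate 1 left out, 2 of the 10 genes had a higher mean and an unadjusted p under 0.05 (edgeR; 2.47% of all genes), and with 3 month replicate 3 left out 3 did (4.13% of all genes), against 5 with all libraries (3.52%).

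**Figure D4:**
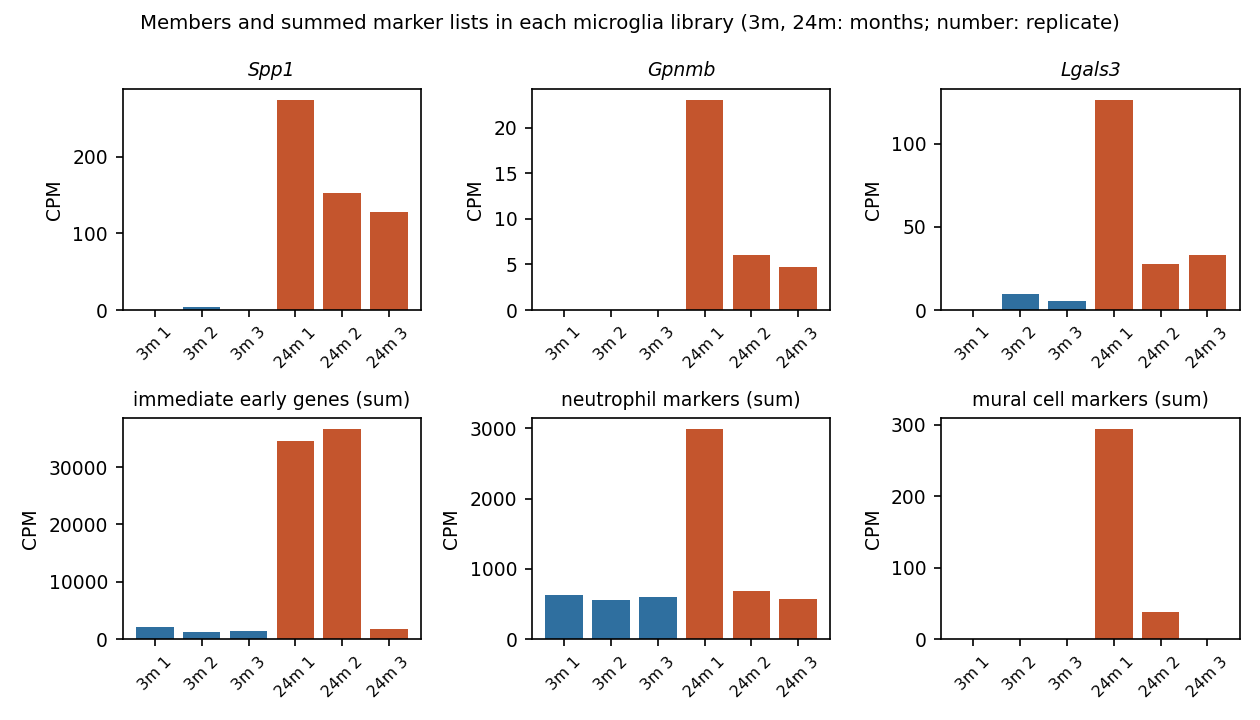
Levels in CPM of Spp1, Gpnmb and Lgals3 and the summed CPM of immediate early, neutrophil and mural cell lists, with 1 bar per microglia library from 0 and a scale for each panel. The 3 genes are high in all old libraries, the neutrophil and mural sums are highest in 24 month replicate 1, and the immediate early sum is high in 24 month replicates 1 and 2 but 1764 CPM in replicate 3.

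Genes were ranked by how near their library profiles were to those of Spp1 and Gpnmb, using the mean absolute difference of centred log2(CPM + 1) over the 6 microglia libraries. The nearest to Spp1 were Fam20c (0.863), Ppig (1.12), Il1rn (1.13), Lrif1 (1.18) and Axl (1.19), where the median gene was at 3.19. Fam20c was at 0.0746, 4.86 and 0 CPM in the young and 98.7, 18.6 and 55.4 CPM in the old libraries, so, like Spp1, it was highest among young libraries in replicate 2. For Gpnmb the nearest were Perp (0.186), Zfp930 (0.215), Pet100 (0.25), Helz2 (0.273) and G2e3 (0.277), with the median gene at 1.70. Perp had no count in the young libraries and was at 23.7, 4.44 and 3.23 CPM in the old ones. The 6 libraries are also the ones that define each profile, so these values are descriptions.

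Over 8 lists of pathway partners of these genes the median log2 changes lay between -0.35 and 0.46. None of these lists held a gene past an adjusted p of 0.05 (edgeR). Of all genes tested, 50.5% had a higher mean at 24 months. Genes present at 1 age only can pass the filter on low counts, so counts of higher means are descriptions. Of 7 tested osteopontin receptor genes, 2 had a higher mean at 24 months, and the median log2 change was -0.31. Itgb5, a beta chain that pairs with Itgav, went from 146.3 ± 13.02 to 85.8 ± 39.1 CPM (SD of 3 libraries each), and its log2 change was -0.77 ± 0.38 (SE; edgeR adjusted p = 0.958) with no overlap between the ages. Itgav was at -0.57 ± 0.38. Itga5, the fibronectin receptor chain, was at 2.03 ± 1.41, likewise without overlap. In the insulin-like growth factor axis 5 of 11 listed genes passed the filter on low counts. All 5 had a higher mean (median 0.46), led by Insr, the insulin receptor. Insr was at 2.50 ± 2.10 and 26.01 ± 12.97 CPM (SD of 3 libraries each), and its log2 change was 3.38 ± 1.41 (SE; edgeR unadjusted p = 0.0451, adjusted p = 0.893). Igfbp4, a binding protein of the growth factor, and Irs2, an adaptor of its receptor, had log2 changes of 0.46 ± 0.67 and 0.71 ± 1.19.

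Downstream of dectin-1, 5 of 9 tested genes had a higher mean (median 0.12). Syk, the kinase next to the receptor, was at 139.0 ± 10.6 and 101.8 ± 24.3 CPM (SD of 3 libraries each), and its log2 change was -0.45 ± 0.26 (SE; edgeR adjusted p = 0.973). The adaptors Malt1 and Bcl10 were at 1.80 ± 1.43 and 0.44 ± 0.35. Itgb2, the beta chain that pairs with the Itgax product, and Itgam, the alpha chain of the related CD11b, had log2 changes of -0.20 ± 0.20 and -0.13 ± 0.26. Of 7 cystatins and cysteine proteases, 2 had a higher mean (median -0.20): Lgmn, the protease legumain, was at -0.52 ± 0.23 (edgeR, unadjusted p = 0.0531), Ctsf at -0.45 ± 0.28 and Ctsl at 0.31 ± 0.20. Among 4 other galectins 3 had a higher mean (median 0.41). Lgals8, a galectin that marks damaged endosomes, went from 91.1 ± 15.3 to 141.2 ± 6.18 CPM (SD of 3 libraries each), and its log2 change was 0.63 ± 0.24 (SE; edgeR adjusted p = 0.868) without overlap. Lgals9 and Lgals1 were at 0.19 ± 0.27 and 0.84 ± 1.38.

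Of 8 other tetraspanins, 7 had a lower mean at 24 months (median -0.35) and 1 an unadjusted p under 0.05 (background 2.02%). Cd82 was at 486.0 ± 144.8 and 237.8 ± 86.7 CPM (SD of 3 libraries each), and its log2 change was -1.03 ± 0.33 (SE; edgeR unadjusted p = 0.0155, adjusted p = 0.743). The log2 changes of Tspan31 and Tspan4 were -0.34 ± 0.19 and -0.48 ± 0.28. Regulators of lysosomal genes showed no common direction, with Tfeb at -0.89 ± 0.86, Mitf at 0.56 ± 1.049 and Tfe3 at 0.06 ± 0.27. Among 23 other activated microglia genes, 17 had a higher mean and 6 a lower one (median 0.73). With edgeR, 8 of those higher had an unadjusted p under 0.05 (background 3.52%), and 0 of those lower (background 2.02%). In 9 the old libraries all exceeded the young ones (background 7.26%), and in 2 they all lay below (background 6.18%). Lyz2, which encodes a lysozyme and whose near-identical copy Lyz1 makes the split of its reads uncertain, was at 306.6 ± 92.4 and 845.4 ± 193.9 CPM (SD of 3 libraries each), and its log2 change was 1.46 ± 0.28 (SE; edgeR adjusted p = 0.539). Apoe and Lpl, genes of lipid transport and lipolysis, had log2 changes of 2.21 ± 0.26 and 4.42 ± 0.96.

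In whole hippocampus the same genes did not separate the ages, which was also true of most genes tested there. Levels there are the authors' normalized counts, in which each column sums to 974372 to 1002839, and a single read was worth about 0.515 to 1.80 units. Of the 7 genes tested, 5 had a higher mean at 18 months (background 47.2%) and 2 a lower one, with a median log2 change of 0.19 against -0.04 for all genes. None passed with limma (0 of 7; 0% of 13491 genes), and 0 of 7 had an unadjusted p under 0.05, against 2.13% of genes higher and 3.24% lower. In all 8 genes present in the table the ages overlapped, where 5.03% of genes had every aged library above every mature one and 5.93% every one below. Of 11819 genes with an adjusted p in the authors' deposited table, 0.118% were called higher and 0.186% lower, and the smallest adjusted p of a member there was 0.854.

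**Figure D5:**
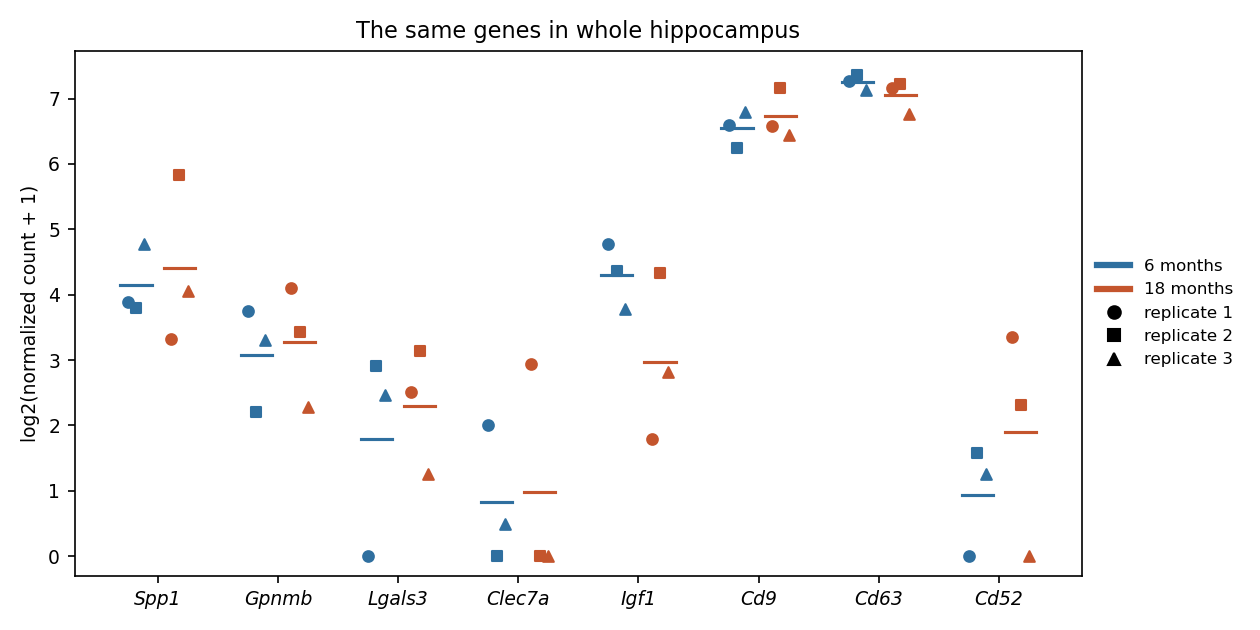
Levels of the 8 genes present in the hippocampus table, with 3 libraries at 6 months and 3 at 18 months per gene and lines at the group means, all as log2(normalized count + 1). The 2 ages overlap in each gene, with Spp1 highest in 18 month replicate 2, at 56.0 normalized counts.

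Spp1 was at 13.8, 12.9 and 26.3 normalized counts in 6 month replicates 1, 2 and 3 and at 8.99, 56.0 and 15.6 in 18 month replicates 1, 2 and 3. The lowest and the highest library were both aged ones, and the log2 change was 0.25 ± 0.69 (SE; limma, adjusted p = 0.975), or -0.46 without 18 month replicate 2. That library also had the highest summed level of 6 choroid plexus markers (10849, against 113.4 to 6894 in the others) and of 6 fibroblast markers (265.5, against 99.5 to 236.8), none of which was at 0 in every library, and their part in the Spp1 level was not tested. Igf1 was at 26.4, 19.6 and 12.7, then 2.46, 19.1 and 6.03 normalized counts. Its aged mean was the lower one, opposite in sign to the microglia, with overlapping groups and a log2 change of -1.33 ± 0.79 (SE; limma, adjusted p = 0.913). Leaving out 18 month replicate 1 gave a change of -0.74, and leaving out 18 month replicate 2 gave -2.00 (limma, unadjusted p = 0.0262, adjusted p = 0.780).

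Gpnmb was at 12.5, 3.59 and 8.85 normalized counts at 6 months and at 16.2, 9.76 and 3.88 at 18 months, a log2 change of 0.19 ± 0.84 (SE; limma, adjusted p = 0.986). Unlike in young microglia it was above 0 in every library. Lgals3 was at 0, 6.50 and 4.54, then 4.69, 7.79 and 1.38, with a log2 change of 0.51 ± 1.01, and Clec7a at 3.00, 0 and 0.406, then 6.66, 0 and 0 normalized counts, each a few reads at most. Cd9 was at 96.2, 75.0 and 110.2, then 94.4, 142.1 and 86.1 (log2 change 0.18 ± 0.27, SE; limma, adjusted p = 0.950). Cd63 was at 153.5, 163.8 and 139.0, then 143.0, 148.3 and 108.3 (log2 change -0.20 ± 0.21). Cd52 was at 0, 1.98 and 1.38, then 9.25, 3.99 and 0, with a log2 change of 0.95 ± 1.02. The tetraspanins had the most signal and the narrowest errors of the members here, and Lgals3, Clec7a and Cd52 rested on a few reads per library.

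The summed level of 16 microglia markers in hippocampus was 757.1 to 904.8 normalized counts at 6 months and 978.7 to 1057.7 at 18 months, with no overlap. The microglia were compared at 3 and 24 months and the hippocampus at 6 and 18 months, in other units, so the 2 sets of changes are given side by side and their difference was not tested. Of the partner lists, 0 genes passed in hippocampus (limma). Tspan31, a tetraspanin, was the partner with the smallest p, at 77.3 ± 13.7 and 115.3 ± 18.1 normalized counts (SD, n = 3 each; log2 change 0.57 ± 0.25, SE, limma adjusted p = 0.909), and Igf1r, the receptor of the Igf1 product, was at 0.66 ± 0.44. Of 21 other activated microglia genes, 12 had a higher mean (median 0.01). In 3 of the 21 all aged libraries exceeded all mature ones and in 0 they lay below, against 5.03% and 5.93% of all genes. With limma, 2 had an unadjusted p under 0.05 and a higher mean, and 0 had one with a lower mean, against 2.13% and 3.24%. Apoe was at 0.29 ± 0.12 (limma, adjusted p = 0.890).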

How the data were processed

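Trizol RNA was copied into cDNA by oligo-dT priming and template switching, amplified and tagmented, per the labels' protocols. Tools named in the submitters' processing notes are kallisto, DESeq and DESeq2, and builds are GRCm39 and mm10, without versions or roles. For microglia the authors deposited estimated counts, TPM values and a mean transcript length for each gene, per the file headers. For each tissue they deposited normalized counts (a signal scaled between samples), log2 fold changes, a Wald statistic (a score) and p-values, per the file headers.

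Estimated counts were rounded and tested with edgeR 4.0.16 (R 4.3.3; quasi-likelihood, the package's default fit, TMM scaling, filterByExpr). The standard error is the log2 change over the root of F. The hippocampus table used here holds no counts, so limma 3.58.1 with a mean trend was run on log2(normalized count + 1), for genes of at least 1 in at least 3 samples, as planned for that case; log2 changes on that scale understate low genes. All tests were two-sided and fitted to the 6 samples of a tissue, with Benjamini-Hochberg adjustment over all genes. Low hippocampus values were whole multiples of a read in 26.8% to 55.3% of cases (tolerance 0.1), so reads were not recovered and the depth is known only roughly. Entries without a gene name held 0.0546% to 0.0771% of microglia counts and 0.0233% to 0.0335% of hippocampus signal and were left out. A floor of 3 counts covers counting error alone, because reads were amplified without molecular identifiers and are not independent. Scripts were tested on simulated data. Every sample column was used (0 without a sample).

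The 10 genes and the gene lists were chosen with earlier results of these data known. Besides the 10, the text names up to 3 tested genes with the smallest p per partner list, the 5 nearest genes to Spp1 and Gpnmb, and the 2 highest markers of other cell types. Alternatives were DESeq2 1.42.0, RLE scaling, length offsets, no filter, a replicate block, each replicate left out, limma on log2(TPM + 1) and, for hippocampus, pseudocounts of 0.5 and 5. Leaving out replicate 1 of both ages and the bias-adjusted edgeR fit were added after seeing the data; the second was run first and calls Spp1, and the default fit was kept as main because the planned test named no option.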

Additional observations from a re-analysis of the deposited data

How the results depend on the processing

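The main tests called 0 genes in microglia and 0 in hippocampus. In microglia, DESeq2 called 251 genes (194 higher, 57 lower), limma on log2(TPM + 1) called 2 and the bias-adjusted edgeR fit called 2. DESeq2 gave a p-value to 9 of the 10 member genes, all but Itgax, and called 2 (Spp1 and Gpnmb). Limma on TPM and the bias-adjusted fit called 1 of the 10 each (Spp1). With single replicates left out, edgeR called 0 to 55 genes in microglia, 55 without 24 month replicate 3 and 0 in each other case, and 0 members; limma called 0 to 1 in hippocampus, 1 without 6 month replicate 1, and 0 members. The cause was not tested. The number of members with every 24 month library above every 3 month one was 7 on CPM and TPM and 7 to 8 with replicates left out; in hippocampus it was 0, and 0 to 1 with replicates left out (Cd52, without 18 month replicate 3), while the members with every aged library below numbered 2 without 6 month replicate 3 and 1 without 18 month replicate 2.

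Of 140 values of the microglia members under alternatives, 131 kept their direction and side of the threshold, 4 passed it and 5 changed sign. The 131 include the DESeq2 value of Itgax, which had no p-value and is counted for its direction only. Itgax had no p-value in the authors' deposited table either. Of 70 values in hippocampus, 65 kept both and 5 changed sign. All sign changes came from leaving out single libraries. With single libraries or replicate 1 of both ages left out, the values ranged from -0.028 to 7.78 for Itgax (-0.012 and -0.028 without 3 month replicates 2 and 3), from -0.046 to 0.15 for Cd63 (-0.033 and -0.046) and from -0.085 to 0.21 for Cd9 in microglia. In hippocampus they ranged from -0.39 to 1.06 for Lgals3, -0.25 to 0.68 for Gpnmb (-0.25 and -0.23), -0.46 to 0.80 for Spp1 and -0.039 to 0.32 for Cd9. The adjusted p of Spp1 in microglia ran from 6.94e-07 to 1 over its alternatives, and that of Gpnmb from 2.71e-05 to 1.

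Over all genes, same-numbered microglia libraries deviated from their group means with correlations of 0.06, 0.01 and -0.03, and hippocampus ones with 0.01 each. The labels do not say whether replicate numbers mark a shared batch. Correlations over all genes cannot decide it, because a batch may touch only some of them. With the replicate block, 0 genes and 0 members were called in either tissue, 238 genes had an unadjusted p under 0.05 and a higher mean in microglia (375 without the block) and 328 in hippocampus (288 without), and the log2 change of Itgax was 5.49 (0.59 without). Low counts limit Gpnmb and Igf1 in microglia, the young level of Spp1 there (6, 34 and 2 counts), and Lgals3, Clec7a and Cd52 in hippocampus. Itgax in microglia is limited by 3 month replicate 1, with 613 counts against 1 count in each of the other young libraries.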
